A study of Pimephales promelas with 27 samples.

Results

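Of 15208 non-control probes of a fathead minnow (Pimephales promelas) array, 100 with a brief peak at 9 h of ovary explant culture are described here. The number 100 is a fixed list length and not a count of the probes that peak. The members were chosen on the control arrays, in which their mean level at 9 h exceeded both the 6 h level and the 12 h level. A level here is log2 of the spot's processed signal minus log2 of the array's 75th percentile, so it is relative to the other probes of the same array. Of the 15208 probes, 10155 were well above background on all 27 arrays, and 8426 of these also had a mean within-group SD below 0.6. The 100 members had the highest value of the smaller of 2 differences in controls, 9 h minus 6 h and 9 h minus 12 h, called the peak height here. The other 8326 probes within both limits are called the remaining probes. Because control means at 3 times chose the members, the control values are a description, and the tests concern the DHT arrays, whose means the choice did not use. The detection and spread limits did use the DHT arrays, and many DHT arrays shared deviations with a control array of the same time. The DHT arrays are thus only a partly independent check.

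The study cultured explants of ovary from females and measured total RNA on 1-colour Agilent arrays, 1 sample per array. Explants treated with DHT, an abbreviation commonly used for the androgen dihydrotestosterone, were given 1e-06 M, and 5, 5 and 4 of them were collected after 6, 9 and 12 h. Control explants numbered 4, 5 and 4 at those times, and what the control medium contained is not given in the sources used here. The labels leave unsaid whether the samples of a group came from different fish, and p-values therefore measure the spread among these samples, which may be technical.

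An ovary explant is a piece of tissue kept alive in medium, in which growing oocytes remain surrounded by granulosa cells and by theca cells. Theca and granulosa cells together make sex steroids, and androgens act on cells that carry the androgen receptor, a transcription factor activated by its ligand. In bulk RNA, fewer cells of a type and less RNA per cell cannot be told apart. The probes carry catalogue names and no gene names, so the members are described by probe, and the tissue label could not be checked against marker genes.

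Signal differed between arrays and times. The 75th percentile of the processed signal lay between 921 and 5709 over the arrays, and between 73.9% and 89.9% of probes were well above background. No non-control spot was saturated. The 6 h and 9 h arrays lay on slides 1 to 4, scanned on 1 day, and the 12 h arrays lay on slides 5 to 7, scanned on 2 other days. For 12 h against 9 h and for 12 h against 6 h, the slide, the scan day and the time therefore cannot be told apart. The number of arrays limits the precision.

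In DHT-treated explants too, the members stood highest at 9 h. Median levels of the 100 members were -2.29, -2.47, -2.58, -2.64 and -2.0 on the DHT arrays at 6 h, -1.77, -1.53, -1.50, -1.46 and -1.26 at 9 h, then -2.67, -2.73, -2.63 and -2.54 at 12 h. In controls the medians were -2.54, -2.58, -2.57 and -2.36 at 6 h, -1.57, -1.80, -1.67, -1.56 and -1.12 at 9 h, then -2.73, -2.59, -2.57 and -2.89 at 12 h. In each arm every 9 h array stood above every 6 h and 12 h array, and the ranges of the 6 h and 12 h arrays overlapped. The mean of the array medians was -2.4 ± 0.26, -1.50 ± 0.18 and -2.64 ± 0.08 at 6, 9 and 12 h with DHT (SD, n = 5, 5 and 4), and -2.51 ± 0.11, -1.54 ± 0.26 and -2.70 ± 0.15 in controls (SD, n = 4, 5 and 4). The median of the remaining probes stayed between -0.93 and -0.65 on all 27 arrays.

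The array signal also differed with time. The 75th percentile of the processed signal was 2581 to 4103, 2995 to 4864 and 921 to 2918 on the DHT arrays at 6, 9 and 12 h, and 2733 to 3989, 3651 to 5709 and 1096 to 3418 on the control arrays. Within the control 9 h group, the array with the lowest 75th percentile, replicate 5 at 3651, had the highest member median, -1.12. The array with the highest, replicate 2 at 5709, had the lowest, -1.80. The arrays between them ran the other way, with -1.67 in replicate 3 at 3715, -1.57 in replicate 1 at 4153 and -1.56 in replicate 4 at 5283. Within the DHT 9 h group the array with the lowest 75th percentile, replicate 1 at 2995, had the lowest member median, -1.77. The array with the highest, replicate 4 at 4864, had -1.46, the median nearest below that of replicate 5. The part of overall signal in the peak was not tested.

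Peak height varied among members. On the DHT arrays it ranged from 0.08 to 1.26 with a median of 0.73, a fold of 1.66, and all 100 members lay above 0. In controls, where it chose the members, it ranged from 0.72 to 1.37 with a median of 0.83, a fold of 1.78. Of the remaining probes, 27.7% were above 0 with DHT, with a median of -0.22, and 26.1% were above 0 in controls, with a median of -0.24. The DHT value was larger than the control value in 28 of the 100 members, and the median ratio of DHT to control was 0.885. Across members the heights of both arms had a Pearson r of 0.31, against 0.90 across the remaining probes. The points of this comparison share arrays, and the members span a narrow range of control heights by choice.

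Between 6 h and 9 h of DHT, the members' levels differed by a median of 0.90, from 0.19 to 1.57, and the difference was above 0 in all 99 members tested, against a median of -0.04 over the 13714 probes tested. One member, UF_Ppr_AF_112621, had a flagged spot and was not tested. By limma with adjustment over all tested probes, 11 of the 99 members rose, where 0.328% of all tested probes rose. No member passed in the opposite direction, where 0.467% of all tested probes passed. At an unadjusted p under 0.05, 80 members were higher and none was lower, where 2034 of the 13714 probes differed in either direction. The count of 11 depended on single arrays. It was 3, 0, 3, 1 and 9 without DHT 6 h replicates 1 to 5, and 6, 22, 1, 0 and 6 without DHT 9 h replicates 1 to 5. Where it was 0, the unadjusted count was 74 without DHT 6 h replicate 2 and 73 without DHT 9 h replicate 4. Over all tested probes the unadjusted counts in either direction were then 1923 and 1639.

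Slides offered a check on this comparison, since 6 h and 9 h arrays shared some of them. With slide as a fixed term, in a fit to the 6 h and 9 h arrays only, no member passed by limma. The median difference was 0.76 with all 99 above 0. Fewer arrays as well as the slide term enter that fit, and the part of each in the lower count was not tested. In that fit 58 members were higher at an unadjusted p under 0.05, where 1632 of all tested probes differed in either direction. On slide 2, which held 1 DHT 9 h array and 4 DHT 6 h arrays, the median 9 h minus 6 h difference was 0.62. There 93 members were above 0, against 53.7% of the remaining probes. On slide 3, with 2 DHT 9 h arrays and 1 DHT 6 h array, the median was 0.71. There 97 members were above 0, against 46.6% of the remaining probes. In controls the corresponding medians were 0.93, 1.18 and 1.22 on slides 1, 2 and 4, and those of the remaining probes lay between -0.15 and 0.04 over the 5 comparisons.

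Between 9 h and 12 h of DHT, the members' levels differed by a median of -0.87, from -2.21 to -0.08, against 0.12 over all probes tested. Here 49 of the 99 members fell, where 3.15% of all tested probes fell. Without adjustment, 69 members had a p under 0.05, all lower, where 3798 of the 13714 probes tested did in either direction. None passed as higher at 12 h, where 13% of all tested probes did. Among the 49 members that passed, the fold ran from 1.66 to 4.63 with a median of 2.41. The 11 members that rose at 9 h had folds from 1.83 to 2.97 with a median of 2.19.

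Both comparisons were passed by 9 members, where 0.153% of all tested probes passed both. A further 40 members passed for 12 h against 9 h alone, 2 for 9 h against 6 h alone, and 48 for neither. The count of 9 lay between 0 and 17 when single DHT arrays were left out. It was 0 without DHT 6 h replicate 2 or DHT 9 h replicate 4, 1 without DHT 6 h replicate 4 or DHT 9 h replicate 3, and 2 without DHT 6 h replicate 1 or 3. It was 5 without DHT 9 h replicate 1 or 5, and 17 without DHT 9 h replicate 2. On the control arrays 14 members passed for 9 h against 6 h (0.474% of all tested probes) and 60 for 12 h against 9 h (2.95%), from which nothing is read because these arrays chose the members.

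The 12 h and 6 h levels of the members were set side by side. The median 12 h minus 6 h difference over the 99 tested members was -0.02 with DHT, from -1.12 to 1.2. The difference was above 0 in 46 of them. Of the 100 members, 76 lay within 0.5 of their 6 h level with DHT, a share near the 75% of the remaining probes that did. In controls, whose means chose the members, 87 did, against 73.6% of the remaining probes. In the limma comparison of 12 h with 6 h of DHT, added after the data were seen, 1 member was higher at 12 h (9.66% of all tested probes) and 1 was lower (1.12%). The share of members was near that of all tested probes for lower and below it for higher, so nothing is read from these counts. Slide and scan day cannot be told apart from time in this comparison, and it was not rerun under other settings.

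The member that passed as higher at 12 h than at 6 h was UF_Ppr_AF_108003. Its levels were -5.20, -5.92, -5.27, -5.61 and -5.87 with DHT at 6 h, -4.0, -4.03, -3.0, -3.85 and -5.14 at 9 h, then -4.55, -4.54, -4.26 and -4.14 at 12 h. All 12 h arrays and all 9 h arrays were above every 6 h array, and the 12 h arrays lay inside the 9 h range. The probe rose by 1.57 at 9 h (SE 0.30, adjusted p = 0.0216), and at 12 h it was 1.2 above 6 h (SE 0.32, adjusted p = 0.0152). Its 12 h minus 9 h difference of -0.37 had an adjusted p of 0.502. In controls it averaged -5.37 ± 0.26, -3.91 ± 0.56 and -4.89 ± 0.48 at 6, 9 and 12 h (SD, n = 4, 5 and 4).

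The member that passed as lower at 12 h than at 6 h was UF_Ppr_AF_102386. With DHT it had levels of 0.17, -0.34, -0.17, -0.12 and 0.64 at 6 h, 0.62, 0.48, 0.34, 1.63 and 1.98 at 9 h, then -1.78, -1.29, -0.95 and -0.31 at 12 h. The 12 h arrays lay below all 9 h arrays, with an overlap at 6 h in which DHT 12 h replicate 4 was slightly above DHT 6 h replicate 2. At 12 h it was lower than at 9 h by a log2 difference of -2.09 (SE 0.36, adjusted p = 0.000206) and lower than at 6 h by -1.12 (SE 0.36, adjusted p = 0.0478). Control levels averaged -0.24 ± 0.47, 0.78 ± 0.67 and -1.03 ± 0.13 at 6, 9 and 12 h.

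Separation of single arrays gave a further view of the peak. Every DHT 9 h array was above every DHT 6 h array in 25 of the 100 members, against 2.17% of the 8426 probes within both limits. Every DHT 9 h array was above every DHT 12 h array in 37 members, against 3.85%, and above both in 16, against 0.902%. The control 9 h arrays were above the control 6 h and 12 h arrays in 24 members (0.843% of the 8426), again a result of the choice.

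In 4 members every 9 h array of both arms was above every other array, against 0.0949% of the 8426 probes. The control arrays in this criterion also chose the members, so the count is partly fixed by the choice and nothing is read from its excess. These were UF_Ppr_AF_101334, UF_Ppr_AF_117146, UF_Ppr_AF_108349 and UF_Ppr_AF_104308, named after their values were seen. The criterion also used the DHT arrays, so low p-values of these 4 probes in the DHT comparisons follow in part from the pick. UF_Ppr_AF_101334 had levels of -0.19, -0.89, -0.44, -0.33 and -0.14 with DHT at 6 h, 0.82, 0.44, 0.65, 1.13 and 0.62 at 9 h, then -0.66, 0.11, -0.58 and -0.37 at 12 h. Controls had -0.34, -0.64, -0.06 and -0.39 at 6 h, 0.94, 0.15, 0.83, 0.34 and 1.30 at 9 h, then -1.15, -0.96, -0.31 and -0.31 at 12 h. The lowest 9 h array of all, control replicate 2, was just above the highest other array, DHT 12 h replicate 2. With DHT the probe rose by 1.13 at 9 h (SE 0.22, adjusted p = 0.0235) and fell by 1.11 at 12 h (SE 0.24, adjusted p = 0.00189).

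UF_Ppr_AF_117146 had the smallest SE of the 11 members that rose. Its levels with DHT were -0.86, -0.93, -1.02, -1.38 and -1.14 at 6 h, -0.54, -0.02, -0.15, 0.02 and -0.26 at 9 h, then -1.11, -1.15, -1.7 and -1.15 at 12 h. In controls they were -1.18, -1.31, -1.04 and -1.12 at 6 h, -0.45, -0.02, 0.39, -0.77 and -0.03 at 9 h, then -1.49, -1.23, -1.29 and -1.12 at 12 h. No 9 h array overlapped with the others, and DHT 12 h replicate 3 was lower than the other 12 h arrays. The rise with DHT was 0.87 (SE 0.18, adjusted p = 0.0288), and the 12 h minus 9 h difference was -1.08 (SE 0.19, adjusted p = 0.000234).

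UF_Ppr_AF_104308, a bright probe, had 2.03, 2.14, 2.45, 1.86 and 2.53 with DHT at 6 h, 2.90, 2.68, 3.63, 3.60 and 3.09 at 9 h, then 1.99, 2.11, 1.96 and 2.42 at 12 h. Its control levels were 1.78, 2.23, 2.0 and 2.27 at 6 h, 3.10, 2.58, 3.17, 2.83 and 3.45 at 9 h, then 1.42, 2.43, 1.88 and 2.07 at 12 h. The lowest 9 h array, control replicate 2, was slightly above the highest 6 h array, DHT replicate 5. The 9 h minus 6 h difference with DHT was 0.98 (SE 0.21, adjusted p = 0.0309) and the 12 h minus 9 h difference -1.06 (SE 0.23, adjusted p = 0.00167). UF_Ppr_AF_108349, a dim probe, averaged -5.14 ± 0.33, -4.11 ± 0.28 and -5.10 ± 0.35 with DHT and -5.37 ± 0.49, -4.32 ± 0.09 and -5.29 ± 0.79 in controls. Its rise with DHT missed the threshold (difference 1.04, adjusted p = 0.0642), and its fall at 12 h passed (difference -0.99, adjusted p = 0.0159).

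Of the members chosen for the highest peak in controls, UF_Ppr_AF_109618 was first, with a control height of 1.37, and it was also first in the DHT arrays, at 1.26. It had levels of -1.84, -3.0, -2.34, -1.91 and -1.75 with DHT at 6 h, -1.33, -1.52, -1.50, -0.67 and 0.50 at 9 h, then -2.70, -2.63, -2.07 and -2.35 at 12 h. In controls it had -2.43, -2.59, -2.54 and -2.45 at 6 h, -1.30, -2.06, -1.41, -1.36 and 0.45 at 9 h, then -2.99, -2.82, -2.11 and -2.93 at 12 h. Replicate 5 was the highest 9 h array in both arms, and DHT 9 h and 6 h arrays did not overlap. Across the remaining probes, the deviations of these replicate 5 arrays from their group means had r of 0.78. Without control 9 h replicate 5 the control height was 0.97. The fall at 12 h passed with DHT (difference -1.53, SE 0.41, adjusted p = 0.0105), while the 9 h minus 6 h difference of 1.26 (SE 0.38) had an adjusted p of 0.106.

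UF_Ppr_AF_104394, which ranked 3 in controls, passed both tests, though its rise passed in 11 of 19 alternatives and its fall in 8 of 17. Its DHT levels were -0.15, -0.55, -0.17, -0.08 and 0.03 at 6 h, 1.30, 1.05, 0.92, 1.31 and 0.84 at 9 h, then 0.42, 0.60, -0.10 and -0.01 at 12 h. Control levels were -0.13, -0.47, -0.03 and -0.53 at 6 h, 1.39, 0.50, 1.66, -0.01 and 1.38 at 9 h, then -0.03, -1.22, -0.07 and -0.32 at 12 h. The DHT 9 h arrays were tightly grouped and above all other DHT arrays, whereas in controls replicates 2 and 4 were low at 9 h. The probe rose by 1.27 at 9 h of DHT (SE 0.27, adjusted p = 0.0293), and its 12 h minus 9 h difference was -0.86 (SE 0.28, adjusted p = 0.0401).

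The other members with the highest control peaks were UF_Ppr_AF_101479, UF_Ppr_AF_104257, UF_Ppr_AF_114150 and UF_Ppr_AF_112694, with control heights of 1.32, 1.25, 1.22 and 1.18. Their DHT heights were 1.18, 1.04, 1.15 and 0.66 in the same order. The first 3 of these fell at 12 h of DHT, UF_Ppr_AF_114150 by 1.7 (SE 0.36, adjusted p = 0.00177), UF_Ppr_AF_101479 by 1.59 (adjusted p = 0.0086) and UF_Ppr_AF_104257 by 1.51 (adjusted p = 0.0079). UF_Ppr_AF_112694 had a 12 h minus 9 h difference of -0.66 with an adjusted p of 0.255. None of the 4 passed for 9 h against 6 h, with adjusted p from 0.0998 to 0.163.

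The members with the highest peak on the DHT arrays were picked on the differences that the tests use, so passing is partly set by the pick. Among them, UF_Ppr_AF_113693 passed both tests. Its DHT levels were 1.05, 0.98, 1.5, 1.14 and 1.53 at 6 h, 2.61, 1.43, 2.86, 2.93 and 2.57 at 9 h, then 0.81, 1.75, 0.79 and 1.02 at 12 h. Replicate 2 was low at 9 h, inside the 6 h range, and replicate 2 was high at 12 h. The probe rose by 1.24 (SE 0.27, adjusted p = 0.0311) and its 12 h minus 9 h difference was -1.39 (SE 0.29, adjusted p = 0.00137). Control levels averaged 1.17 ± 0.06, 2.14 ± 0.54 and 0.81 ± 0.38 at 6, 9 and 12 h.

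The other high DHT peaks were in UF_Ppr_AF_117151 at 1.25, UF_Ppr_AF_101834 at 1.18 and UF_Ppr_AF_118699 at 1.18. UF_Ppr_AF_101834 had -3.46, -3.53, -4.10, -3.35 and -2.65 with DHT at 6 h, -3.21, -2.84, -1.67, -1.78 and -1.68 at 9 h, then -4.78, -4.56, -4.11 and -4.34 at 12 h. It had the largest fall of the 99 members, with every 12 h array below every 9 h array (difference -2.21, SE 0.42, adjusted p = 0.000546), and its control height of 0.72 was near the limit. UF_Ppr_AF_117151 also fell at 12 h (difference -1.51, adjusted p = 0.0107), and UF_Ppr_AF_118699 did not pass (difference -1.18, adjusted p = 0.0853). In UF_Ppr_AF_118699 the DHT 9 h levels ran from -5.65 to -2.68, the widest spread of these, with replicate 5 highest, as in controls at -2.83.

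The remaining members that rose at 9 h of DHT were UF_Ppr_AF_114814, UF_Ppr_AF_114933, UF_Ppr_AF_110659, UF_Ppr_AF_105704 and UF_Ppr_AF_105750, of which all but UF_Ppr_AF_105750 were named after their values were seen. UF_Ppr_AF_114814 had -1.09, -1.18, -1.05, -0.42 and -0.43 at 6 h, 0.51, 0.30, 0.54, 1.47 and -0.08 at 9 h, then -0.17, -0.39, -0.20 and -0.73 at 12 h. Its 9 h arrays were all above the 6 h and 12 h arrays. The rise was 1.38 (SE 0.26, adjusted p = 0.0208), and the 12 h minus 9 h difference was -0.92 (SE 0.28, adjusted p = 0.0237).

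UF_Ppr_AF_110659 had 1.56, 1.18, 1.34, 1.76 and 1.35 at 6 h of DHT, 2.62, 2.24, 2.46, 2.72 and 2.54 at 9 h, then 1.19, 1.58, 1.39 and 1.65 at 12 h. All 9 h arrays were above the 6 h and 12 h arrays (rise 1.08, SE 0.24, adjusted p = 0.0311; 12 h minus 9 h -1.06, SE 0.25, adjusted p = 0.00419). UF_Ppr_AF_114933 differed by 1.36 at 9 h (adjusted p = 0.0293) and by -1.02 at 12 h (adjusted p = 0.0215). UF_Ppr_AF_105704 differed by 1.05 (adjusted p = 0.0485) and by -1.03 (adjusted p = 0.00857). In this probe DHT 9 h replicate 2, at 0.91, lay among the 6 h levels of 0.62 to 1.2, and the other 9 h arrays were between 1.92 and 2.33.

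Within slides, the 11 members that rose at 9 h had 9 h minus 6 h differences from 0.07 to 1.47 on slide 2 and from 0.62 to 2.45 on slide 3, all above 0. The lowest on slide 2 was UF_Ppr_AF_105704, where DHT 9 h replicate 2 was the only 9 h array. The 11 were picked on a comparison that used these same arrays, so values above 0 follow in part from the pick. Nothing about slides is read from them. Among all members, picked on the control arrays, 93 were above 0 on slide 2 and 97 on slide 3.

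UF_Ppr_AF_105750 was the brightest member, with a mean level of 4.65 over all arrays. Its levels were 3.75, 4.27, 4.15, 4.08 and 4.61 with DHT at 6 h, 5.6, 5.16, 5.01, 5.46 and 5.17 at 9 h, then 5.24, 5.04, 4.54 and 4.25 at 12 h. Controls had 4.12, 3.94, 3.95 and 4.09 at 6 h, 5.64, 4.41, 5.49, 4.38 and 5.70 at 9 h, then 4.83, 3.85, 4.69 and 4.08 at 12 h. The DHT 9 h arrays were above the 6 h arrays and overlapped with the 12 h arrays, 2 of which were still above 5. It rose by 1.11 (SE 0.27, adjusted p = 0.0485), and its 12 h minus 9 h difference of -0.51 (SE 0.28) had an adjusted p of 0.245. The other of the brightest pair, UF_Ppr_AF_118520, fell at 12 h (difference -0.86, SE 0.26, adjusted p = 0.025), and its 9 h minus 6 h difference of 0.90 had an adjusted p of 0.0796.

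Neither of the dimmest members passed a test in the DHT arrays. UF_Ppr_AF_104974 averaged -5.36 ± 0.56, -4.26 ± 0.61 and -5.31 ± 0.46 with DHT (SD, n = 5, 5 and 4), with adjusted p of 0.134 for 9 h against 6 h and 0.0634 for 12 h against 9 h. UF_Ppr_AF_117907 averaged -5.80 ± 0.68, -5.25 ± 0.62 and -5.55 ± 0.47, with adjusted p of 0.47 and 0.647 for these comparisons. By mean level over all arrays, the median DHT height was 0.57 in the 17 members below -4, 0.72 in the 36 between -4 and -2, 0.81 in the 29 between -2 and 0, and 0.81 in the 18 above 0. Across members, level and DHT height had a Pearson r of 0.09.

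Members with the lowest DHT peak were UF_Ppr_AF_105519, UF_Ppr_AF_117525, UF_Ppr_AF_112071 and UF_Ppr_AF_103172, at 0.08, 0.14, 0.19 and 0.21. They were picked for a small DHT difference, so high p-values for that difference follow in part from the pick. UF_Ppr_AF_105519 had -0.13, -0.43, -0.63, 0.21 and -0.40 with DHT at 6 h, 0.32, 0.87, 0.35, 0.29 and -0.67 at 9 h, then 0.45, 0.40, 0.08 and -0.31 at 12 h. Replicate 5 was the lowest of its 9 h arrays and the groups overlapped widely, with a 12 h minus 9 h difference of -0.08 (SE 0.27, adjusted p = 0.899). UF_Ppr_AF_117525 likewise had a difference of -0.14 (SE 0.37, adjusted p = 0.854), and both changed sign when single arrays were left out. UF_Ppr_AF_112071 had a 9 h minus 6 h difference of 0.19 (SE 0.28, adjusted p = 0.808), with DHT 6 h replicate 2 at -3.62 above all other arrays of the probe.

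UF_Ppr_AF_103172 had 12 h levels that overlapped with those at 9 h in both arms. It had 0.55, -0.20, 0.01, -0.36 and 0.49 with DHT at 6 h, 1.18, 1.26, 0.90, 0.73 and 0.93 at 9 h, then 0.38, 1.1, 0.80 and 0.89 at 12 h. Controls had -0.03, -0.26, -0.09 and 0.07 at 6 h, 1.35, 1.02, 1.27, 0.94 and 0.69 at 9 h, then 0.45, 0.43, 0.81 and -2.79 at 12 h. A single control array, 12 h replicate 4, was far below the rest. Of the DHT 12 h arrays, replicate 1 lay within the 6 h range and the other 3 within the 9 h range, and in controls replicates 1 and 2 lay between the 6 h and 9 h arrays and replicate 3 within the 9 h range. Its control peak height of 1.13 was 0.49 without that array.

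DHT and control arrays were not independent of each other. After group means were removed, 11 of the 14 DHT arrays had a mutual best partner among the control arrays of the same time, with r from 0.52 to 0.78 across the 8326 remaining probes. In 6 of the 11 pairs both arrays lay on 1 slide. The labels name no pairs. Control 9 h replicate 5 was the highest array of its group in 51 members and its partner, DHT 9 h replicate 5, in 33. Control 9 h replicate 2 was the lowest in 42 and its partner, DHT 9 h replicate 2, in 41. Deviations of control arrays that helped to choose the members can thus recur on the DHT arrays. The counts of members that passed or did not overlap on the DHT arrays may therefore be too high.

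The other 3 DHT arrays, 6 h replicate 5, 9 h replicate 4 and 12 h replicate 3, had best r of 0.03 to 0.19. Across these 3 arrays the 9 h level was above the 6 h level in 92 of the 100 members, with a median difference of 0.85, against 42.9% of the remaining probes. The 12 h level was below the 9 h level in 90, with a median of -1.12, against 36.7%. Both held in 86 members, against 24.3%. There is 1 array per time here, so the differences have no replicate check.

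DHT and control levels of the members are given side by side, since the controls chose them. The median DHT minus control difference over the 100 members was 0.13 at 6 h, 0.08 at 9 h and 0.16 at 12 h, against -0.03, -0.01 and -0.03 for the remaining probes. It was above 0 in 82, 66 and 79 members, against 39.1%, 48.0% and 43.6% of the remaining probes. The choice favoured low control levels at 6 h and 12 h and high ones at 9 h, so nothing is read from these differences. By limma, 0 of the 13714 probes tested passed between DHT and control at any of the 3 times (0% called). At 6, 9 and 12 h, 59, 361 and 381 had an unadjusted p under 0.05. That fit leaves out the pairs of arrays described above. A fit with the inferred pairs as a random block was added after the data were seen. In it limma called 3, 8 and 30 of the 13714 probes at 6, 9 and 12 h, none of them a member. There 770, 2329 and 2039 probes had an unadjusted p under 0.05. A count of 0 called probes is thus not read as an absence of differences between DHT and control. The pairs were inferred from the same arrays, so that p-values of the blocked fit may be too small.

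The members stood out from the remaining probes in spread. Their median within-group SD was 0.48, against 0.32, and 46 had an SD over 0.5, against 11.0% of the remaining probes. Their mean levels ran from -5.54 to 4.65 with a median of -2.20, against a median of -0.82. Of the members 17, 36, 29 and 18 lay below -4, from -4 to -2, from -2 to 0 and above 0, against 16.9%, 22.1%, 18.9% and 42.1% of the remaining probes. These levels are probe brightness and do not rank transcripts. After group means were removed, the median pairwise r across the 27 arrays was 0.13 among members and 0.02 among the remaining probes, and 12.0% and 5.57% of the pairs exceeded 0.5. A high spread raises the chance of a high rank in a choice on group means, and its part in the list was not tested.

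Members were scattered over the array and over the catalogue. They lay between rows 1 and 188 and columns 3 and 81 of a grid of 192 rows and 82 columns. Within 2 rows and 4 columns of another member lay 25 members and 24.5% of the remaining probes. The remaining probes near a member and those not near one both had a median control height of -0.24. Of the 100 members, 91 carried contig names, against 86.0% of the remaining probes, and 9 carried sequence numbers. The name held the letters rc in 14 members, against 22.5% of the remaining probes. What these letters mean is not given in the sources used here.

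No members shared a contig cluster number. For members with cluster mates among the remaining probes, 14 mates were found. Of these, 5 had a DHT height and 7 a control height above 0, with medians of -0.17 and 0.07. Of all remaining probes, 27.7% had a DHT height and 26.1% a control height above 0, with medians of -0.22 and -0.24. The closest, UF_Ppr_AF_118825, stood at rank 106 with a DHT height of 0.94 and a control height of 0.71, and its mate was the member UF_Ppr_AM_120040. The mates of UF_Ppr_AF_101479 and UF_Ppr_AF_117151 had control heights below 0, and those of UF_Ppr_AF_102684 and UF_Ppr_AF_100481 had 0.51 and 0.43.

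The limit of 100 cut a continuous range. Just inside were UF_Ppr_AF_111979, UF_Ppr_AF_100849 and UF_Ppr_AF_115649, whose DHT heights were 0.38, 0.89 and 0.49 and whose control heights all rounded to 0.72. Just outside were UF_Ppr_AF_103071, UF_Ppr_AF_110843 and UF_Ppr_AF_110335, with DHT heights of 0.47, 0.66 and 0.83 and control heights of 0.72, 0.71 and 0.71. With each control array left out in turn, the lowest control height of a member was 0.25, for UF_Ppr_AF_100481 without 6 h replicate 2. The median of the members' lowest values was 0.63, and 83 stayed over 0.5. Control 9 h replicate 5 was the array whose absence lowered the height most in 33 members, and without it 64 of the 100 were again chosen.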

How the data were processed

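Total RNA labelled with Cy3 was hybridised to 27 1-colour arrays. Per the file headers, Agilent Feature Extraction 10.7.1.1 subtracted the background and detrended each spot to give the processed signal, a linear intensity. The same headers list the median intensity of spot and surroundings, and other columns hold flags of 0 or 1. A table deposited beside the scanner files is on a log2 scale, and its normalization and centring are unknown. Its columns had r of at least 0.9976, across spots, with the log2 processed signal of the same array and medians from 8.13 to 8.20. It served as an alternative.

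Levels were log2 processed signal minus the log2 75th percentile of the array's non-control probes. The model took 13714 probes without a non-uniformity or population outlier flag anywhere and well above background on at least 4 arrays. One group-means model over all 27 arrays was fitted with limma 3.58.1 (R 4.3.3) with Benjamini-Hochberg adjustment over the probes tested and a threshold of 0.05. The fit was also run on data simulated with independent noise on each array, which leaves out the deviations shared by pairs of arrays. Summaries used Python 3.11.15, numpy 2.4.6 and pandas 2.3.3. Replicate numbers follow deposit order and pair nothing. No probe name matched the 64593 RefSeq rows, so planned gene lists and marker lists were not run.

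Named probes were the 6 highest in controls, the 6 highest and 4 lowest with DHT, the 2 brightest, the 2 dimmest and the 3 on each side of the limit, plus 10 named after their values were seen. The members, lists and tests were chosen with earlier results of these data known. The alternatives were other background correction and normalization, the deposited values, other filters, DHT arrays alone, slide as a block and each array left out. Inferred pairs as a random block (DHT against control included) were added after seeing the data. The 12 h against 6 h comparison was also added then and was run under the main setting only.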

Additional observations from a re-analysis of the deposited data

Results flagged for a closer look

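A single array stood far from the others of its group in 10 of 192 sets of values tested (5.21%), which were 186 groups of the 31 named members and the members' array medians in the 6 groups. Chance flags about 1 in 20 groups, and all 10 were of named members. At 9 h of DHT, replicate 2 was low in UF_Ppr_AF_113693 (1.43, the others 2.57 to 2.93) and in UF_Ppr_AF_105704 (0.91, the others 1.92 to 2.33). At 12 h of DHT, UF_Ppr_AF_117146 was low in replicate 3 (-1.7, the others -1.15 to -1.11), and UF_Ppr_AF_105704 was high in replicate 1 (1.06, the others 0.79 to 0.83). In controls at 6 h, UF_Ppr_AF_101479 was low in replicate 4 (-3.79) and UF_Ppr_AF_117525 was high in replicate 3 (-3.98). In controls at 12 h, UF_Ppr_AF_112694 was high in replicate 1 (-0.75) and UF_Ppr_AF_117525 was low in replicate 3 (-5.24). In the same group, replicate 4 was low in UF_Ppr_AF_103172 (-2.79, the others 0.43 to 0.81) and UF_Ppr_AF_115649 (-4.34, the others -3.75 to -3.64).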

How the results depend on the processing

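For 12 h against 9 h of DHT the count of members varied less: between 35 and 62 fell over all alternatives (49 as reported). Of all tested probes, 1675 to 2465 passed in either direction (2214 as reported, 432 lower and 1782 higher). None of these alternatives separates time from slide and scan day for this comparison. Probe counts in this paragraph are of either direction, while member counts are of rises at 9 h or falls at 12 h only. Of the 109 probes given next, 45 were higher at 9 h and 64 were lower. For 9 h against 6 h, where 11 members and 109 probes passed, the counts were 19 members and 192 probes among probes well above background on all arrays, 2 and 6 with the DHT arrays alone, 0 and 2 with slide as a fixed block, and 6 and 46 with inferred pairs as a random block (consensus correlation 0.71; 0.14 for slides). Leaving out 1 DHT array gave 0 to 22 members and 14 to 229 probes. Among the 11 members that rose, the rise passed in 4 (UF_Ppr_AF_105704) to 14 (UF_Ppr_AF_114814) of 19 alternatives. It passed in 6 for UF_Ppr_AF_105750, 7 for UF_Ppr_AF_113693 and 8 for UF_Ppr_AF_110659. Members passing both, 9 as reported, were 15 among probes well above background on all arrays, 2 with the DHT arrays alone and 5 with inferred pairs, and 0 to 17 with 1 array left out. Fewer probes or arrays enter some settings, and the causes of the changed counts were not tested. Slide as a fixed block could not be fitted for 12 h against 9 h.

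The choice of members depended on the processing. Of the 100, 57 were chosen again after normexp and quantile normalization, 21 with no limit on the within-group SD and 53 when the rule was applied to the DHT arrays, and 64 to 89 with 1 control array left out. Quantile normalization and the deposited values gave 73 and 77. With 1 DHT array left out, the 12 h minus 9 h difference of UF_Ppr_AF_117525 lay between -0.54 and 0.078, above 0 without 9 h replicate 1 or 12 h replicate 2, and that of UF_Ppr_AF_105519 lay between -0.30 and 0.082, above 0 without 9 h replicate 2 or 12 h replicate 4. No other named difference changed sign. By replicate number, no paired analysis was possible because the labels carry none, and the only pairs fitted were those inferred from the data. With them as a random block, DHT against control had 3, 8 and 30 called probes at 6, 9 and 12 h, against 0 at each time without it. No member was among the called probes. Dim members near -5 rest on processed signals as low as 15.4.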
